A study of Homo sapiens with 8 samples.

Results

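Wnt proteins are secreted ligands that carry signals between neighbouring cells, and in the lung they pattern the developing airway and act on fibroblasts during repair. In the canonical branch a Wnt ligand joins a Frizzled receptor to the co-receptor LRP5 or LRP6, which stops a cytoplasmic complex built on AXIN from marking β-catenin (CTNNB1) for degradation. β-catenin then enters the nucleus and works with the DNA-binding factors TCF7, TCF7L1, TCF7L2 and LEF1. In the non-canonical branches ligands such as WNT5A act through Frizzled and ROR receptors on cell polarity, movement and calcium. DKK1 blocks LRP5 and LRP6, SFRP proteins bind Wnt ligands outside the cell, and RNF43 and ZNRF3 remove Frizzled receptors from the surface.

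The genes described here are the Wnt ligands, the Frizzled, LRP and ROR receptors, the DKK and SFRP antagonists, the receptor ligases, the AXIN scaffolds, β-catenin and the TCF/LEF factors. They were chosen by symbol: every gene whose symbol starts with WNT, FZD, DKK or SFRP and a digit, plus 13 named pathway genes. This gave 43 of 18216 genes with normalized counts. The choice was made with earlier results of these data known, so the counts of changed genes below are not from a set picked blind. The cells were fibroblasts of the human lung line IMR90, used at passage 28 and grown in DMEM with 10% fetal bovine serum at 3% oxygen and 5% carbon dioxide. The 4 groups of 2 libraries each were DMSO, the solvent control, and Nutlin-3a at 3 µg/mL for 6, 9 or 12 h. Nutlin-3a blocks the binding of MDM2 to the tumour suppressor p53, so that p53 accumulates. All groups were the same line and none lacked p53. One DMSO group served all 3 times and the sources used here do not state its time in culture, so hours of Nutlin-3a and hours of culture cannot be told apart. Nothing says that the 2 libraries of a group came from separate cultures, so the spread between them may be technical. A p-value or SE here rests on the spread within all 4 groups, not only the 2 compared. That spread is pulled strongly towards the one of genes with similar levels (4 residual and 15.5 prior degrees of freedom).

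Polyadenylated RNA was sequenced, and each library held 21930470 to 33585645 reads assigned to genes. A count of 3 reads corresponded to 2.46 to 3.75 normalized counts, the level below which a value is not told from 0 (counting error only). The p53 target CDKN1A, which encodes the cell cycle inhibitor p21, was at 4954 and 4670 normalized counts in DMSO and between 52553 and 72462 in the 6 treated libraries, and MDM2 rose by 3.03 to 3.13 on the log2 scale at the 3 times. All 10 fibroblast markers were present. Of the epithelial markers only EPCAM reached a value of 10, with a summed level over the list of 21.1 to 32.5, and of the immune markers only CD68, with a summed level of 748 to 993. The endothelial genes PECAM1, CDH5 and CLDN5 stayed below 10 while 4 of the 7 endothelial markers passed it, and their summed level, nearly all from TEK, was 1985 to 2092 in DMSO and 1454 to 1526 at 12 h. All 8 smooth muscle and pericyte markers were present, at a summed level of 27984 to 33606. The part of these levels in the results was not tested. In bulk RNA, fewer cells expressing a gene and less of its RNA per cell cannot be told apart.

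Of the 43 genes, 31 reached 10 normalized counts in at least 2 libraries and were tested, 29 of them at 10 or more in all 8 libraries. The other 12 (DKK2, FZD10, FZD3, RNF43, SFRP5, WNT10A, WNT10B, WNT11, WNT4, WNT6, WNT8A and WNT9B) lay between 0 and 10.6 normalized counts in every library. Of the 15 Wnt ligand genes 8 were tested. Exonic lengths came from GENCODE v29, on another build than the one the reads were aligned to, so levels per kilobase are approximate.

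**Figure D1:**
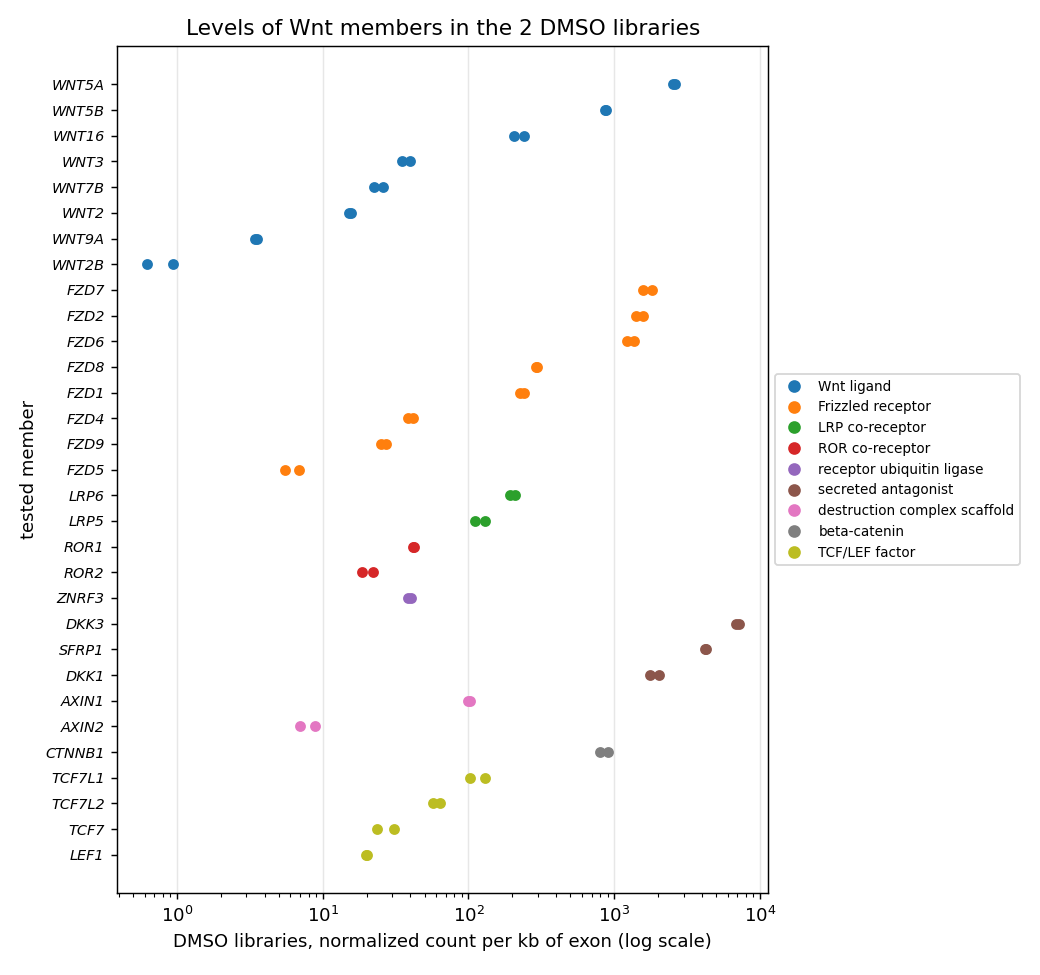
Level of each Wnt pathway gene in the DMSO libraries, as normalized counts per kilobase of exon on a log axis, grouped by role. WNT5A led the ligands at 2573 per kb, FZD7 the Frizzled receptors at 1694 and DKK3 the antagonists at 6984.

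At 6 h the test called 11 of the 31 genes higher (35.5%) and 12 lower (38.7%), against 16.1% higher and 20.6% lower of all 14074 genes tested (74.2% in either direction, against 36.7%). A gene is called here where the limma adjusted p (Benjamini-Hochberg over all tested genes) is under 0.05. At 9 h the calls were 5 higher (16.1%) and 8 lower (25.8%), against 16.2% and 19.1% of all genes (41.9% in either direction, against 35.3%). At 12 h they were 6 higher (19.4%) and 9 lower (29%), against 18.5% and 21.4% (48.4% in either direction, against 39.9%). Among the 11461 genes with a mean of at least 50, where more changes can be called, 22 of 27 Wnt genes were called in either direction at 6 h (81.5%, against 43.1% of all), 12 at 9 h (44.4%, against 42%) and 15 at 12 h (55.6%, against 47.2%). Between 12 h and 6 h, 3 of the 31 genes were higher (9.68%) and 8 lower (25.8%), against 14.4% and 17.1% of all genes (35.5% in either direction, against 31.5%), and 9 of the 27 with a mean of at least 50 (33.3%, against 37.8%). The share called stood furthest from that of all genes at 6 h and near it at 9 h. The Wnt genes' median log2 change was -0.13, -0.10 and -0.16 at 6, 9 and 12 h, with medians over all genes of -0.01, 0.01 and 0.01.

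The changes were small. None of the called changes against DMSO reached 2-fold, and 3 of those between 12 h and 6 h did. In all, 25 of the 31 genes (80.6%) were called in at least 1 comparison, against 58.8% of all tested genes. DKK1, DKK3, FZD6, WNT5A and WNT5B rose at all 3 times, and AXIN1, FZD1, FZD2, FZD7 and LRP5 fell at all 3. With quantile normalization the rise of WNT5A at 6 h (0.10) and those of DKK3 at 9 and 12 h, and the falls of AXIN1 at 6 h (-0.14) and of FZD1 (-0.12), FZD2 (-0.12) and LRP5 (-0.18) at 12 h, kept their direction but were not called. LEF1, TCF7 and WNT16 were called in opposite directions at 6 h and at 12 h. FZD8, FZD9, TCF7L1, TCF7L2, WNT2 and WNT2B passed the test in no comparison. The counts were sensitive to single libraries, both for the Wnt genes and for all tested genes. Replicates of the DMSO group also differed most, with an SD of the log2 difference between the pair over genes of 0.174, against 0.118 to 0.129 in the treated groups.

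**Figure D2:**
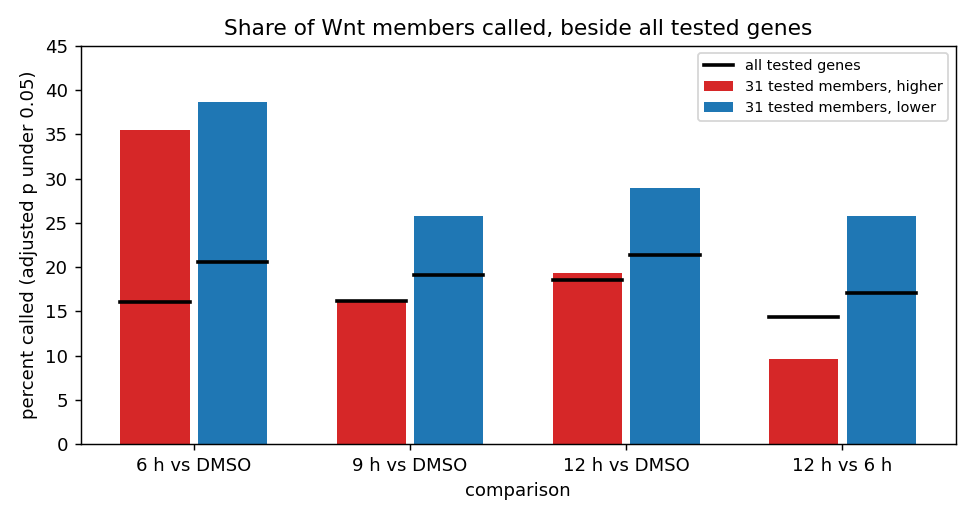
Percentage of the 31 tested Wnt pathway genes called higher and lower in each comparison (bars), beside the same percentage of all 14074 tested genes (black lines). At 6 h the bars reach 35.5% higher and 38.7% lower, above the lines at 16.1% and 20.6%.

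**Figure D3:**
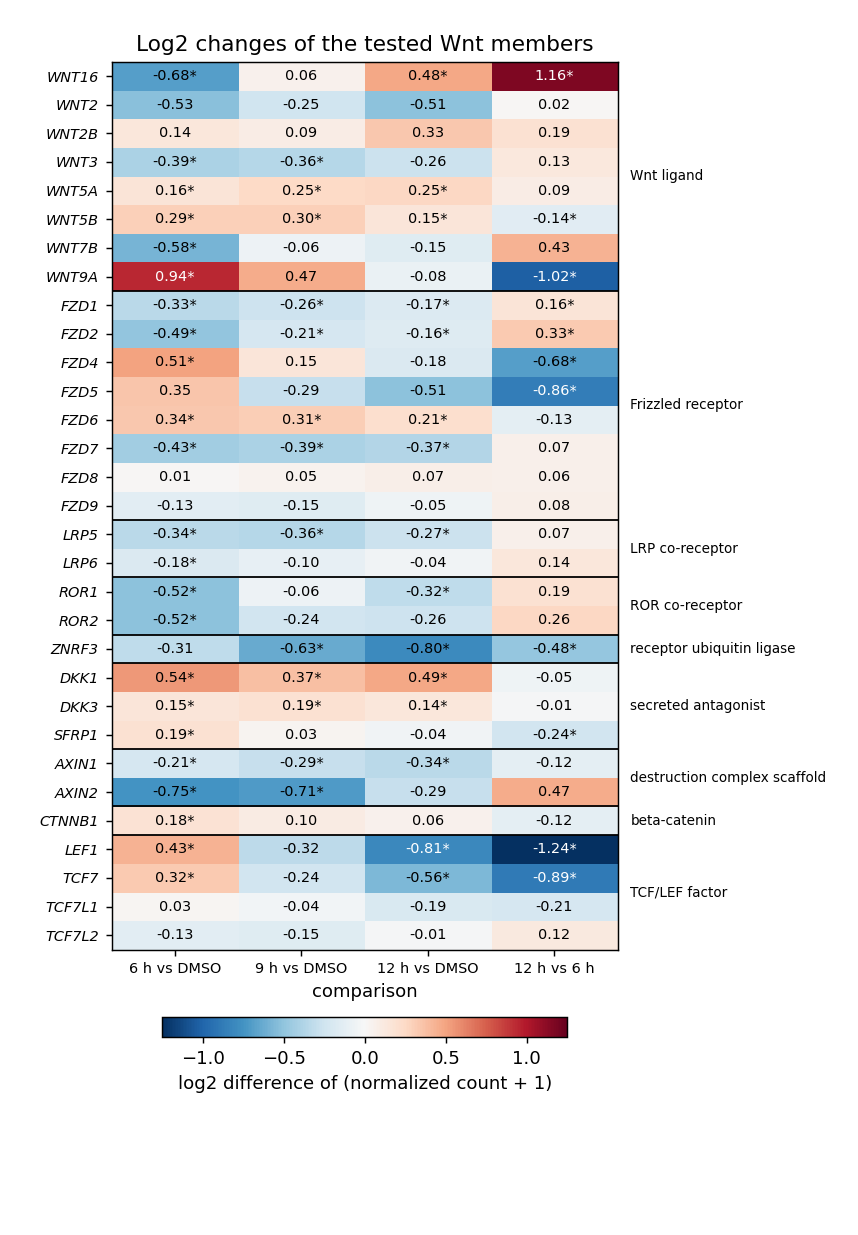
Log2 change of the 31 tested Wnt pathway genes in the 4 comparisons, grouped by role, with an asterisk where the limma adjusted p is under 0.05. DKK1 is higher at all 3 times and FZD7 lower at all 3, while LEF1, TCF7 and WNT16 change sign between 6 h and 12 h.

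Among the ligands, WNT5A and WNT5B, which act mostly in the non-canonical branch, made up 68.5% and 23.2% of the family's summed level per kilobase in DMSO, and WNT16 made up 5.96%. The DMSO levels per kilobase were 2519 and 2628 for WNT5A, 866 and 875 for WNT5B, and 206 and 241 for WNT16, so the order of the 3 was the same in both libraries. WNT5A stood at 18632 and 19438 normalized counts in DMSO, 22077 and 20550.1 at 6 h, 22525 and 22804 at 9 h, and 22738 and 22666 at 12 h. All 6 treated libraries lay above both DMSO libraries. Its log2 change was 0.16 ± 0.05 (SE, n = 2 per group) at 6 h, 0.25 at 9 h and 0.25 at 12 h (limma adjusted p = 0.00781, 0.000172 and 0.000131). WNT5B stood at 3727 and 3765 in DMSO, 4580.5 and 4608 at 6 h, 4678 and 4534 at 9 h, and 4178 and 4151 at 12 h. It too was above DMSO in every treated library, with log2 changes of 0.29, 0.30 and 0.15 (limma adjusted p = 3.32e-05, 2.69e-05 and 0.0111), and it was lower at 12 h than at 6 h by 0.14 on the log2 scale (limma adjusted p = 0.0221). The rise of WNT5A at 6 h was not called without 6 h replicate 1 (log2 0.11). The rise of WNT5B at 12 h was not called without either 12 h library (0.15 and 0.16), nor its 12 h to 6 h difference without any of the 4 libraries compared (-0.14 to -0.15). WNT5A was called higher at 12 h than at 6 h without either DMSO library (0.09).

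WNT16, a ligand reported in senescent fibroblasts, moved in both directions. It was at 671 and 787 normalized counts in DMSO, 503 and 406 at 6 h, 697 and 821 at 9 h, and 1001 and 1028 at 12 h. Both 6 h libraries lay below DMSO, the 9 h libraries overlapped it and both 12 h libraries lay above it. The log2 change was -0.68 ± 0.10 at 6 h, 0.06 at 9 h and 0.48 at 12 h (limma adjusted p = 1.2e-05 and 0.000496 at 6 h and 12 h). The level at 12 h was 2.24-fold that at 6 h (log2 1.16, limma adjusted p = 1.02e-08), and the calls at 6 h, at 12 h and between them held in every alternative run. The RefSeq promoter of WNT16, the 250 bases before its start on GRCh38.p14, chr7:121328750-121328999 on the plus strand, is printed because this ligand had the largest called change of the family.
WNT16: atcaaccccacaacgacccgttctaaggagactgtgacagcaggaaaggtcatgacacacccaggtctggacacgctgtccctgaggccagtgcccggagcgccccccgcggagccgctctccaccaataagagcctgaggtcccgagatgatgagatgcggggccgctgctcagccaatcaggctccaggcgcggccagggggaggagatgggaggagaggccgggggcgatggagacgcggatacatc
It holds neither TCF core (CTTTGA or CTTTGT, on either strand), and no letters are in capitals for that reason.

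The ligands WNT3 and WNT7B, both known mainly for canonical signalling, were lower at 6 h at much lower levels. WNT3 was at 171 and 153 normalized counts in DMSO, 114 and 133 at 6 h, 131 and 121 at 9 h, and 137 and 131 at 12 h. All treated libraries lay below DMSO, and the log2 change was -0.39 ± 0.13 at 6 h and -0.36 at 9 h (limma adjusted p = 0.0229 and 0.0384), with -0.26 at 12 h not called. WNT7B was at 131 and 113 in DMSO, 80.1 and 81.7 at 6 h, 141 and 95.9 at 9 h, and 124 and 96.8 at 12 h. Its change at 6 h was -0.58 ± 0.17 (limma adjusted p = 0.0122), and the 9 h and 12 h libraries overlapped DMSO. WNT9A was near the detection limit, at 13.7 and 14.0 in DMSO, 32.5 and 23.1 at 6 h, 15.9 and 23.8 at 9 h, and 18.0 and 9.37 at 12 h. It was called higher at 6 h (log2 0.94 ± 0.36, limma adjusted p = 0.0474) and lower at 12 h than at 6 h (-1.02, limma adjusted p = 0.0365).

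None of the calls of WNT3, WNT7B and WNT9A held in every alternative. WNT3 was not called at 6 h without replicate 1 of DMSO (-0.31) or 6 h replicate 1 (-0.28). At 9 h WNT3 was not called without DMSO replicate 1 (-0.28), 9 h replicate 1 (-0.42) or replicate 2 (-0.30), or either 12 h library (-0.36). WNT7B was not called at 6 h without 6 h replicate 1 (-0.57) or replicate 2 (-0.60), and its 12 h to 6 h difference of 0.43 was called without any DMSO or 9 h library. WNT9A was not called at 6 h without either DMSO library (0.92 and 0.95), 6 h replicate 1 (0.70) or replicate 2 (1.18), or either 9 h library (0.94). Its 12 h to 6 h difference was not called without 6 h replicate 1 (-0.78) or replicate 2 (-1.26), or 12 h replicate 2 (-0.58). In the authors' deposited table the changes of WNT3 at 6 and 9 h, WNT7B at 6 h and WNT9A at 6 h do not pass an adjusted p of 0.05. WNT2 stood at 68.4 and 69.8 in DMSO, 55.0 and 41.3 at 6 h, 66.7 and 50.2 at 9 h, and 53.2 and 43.7 at 12 h, with log2 changes of -0.53, -0.25 and -0.51 (limma adjusted p = 0.0529 at 6 h and 0.056 at 12 h). It was called at 6 h without 6 h replicate 1 (-0.73) and at 12 h without 6 h replicate 2 (-0.51). WNT2B lay between 7.82 and 14.7 in the 8 libraries.

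**Figure D4:**
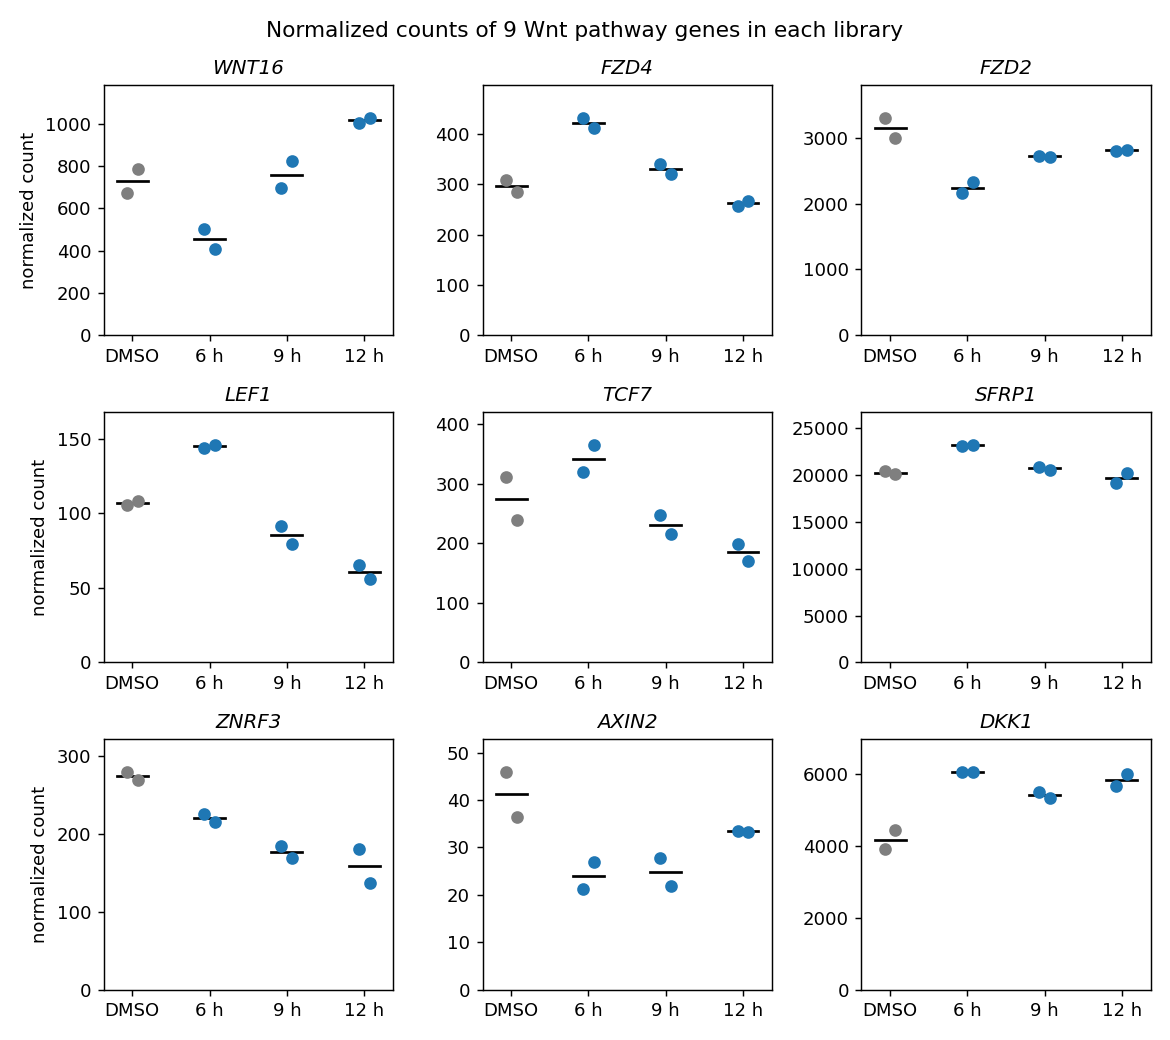
Normalized counts of 9 Wnt pathway genes in each library (points) with the group mean (bars), by group, each panel with its own axis from 0. WNT16 drops to 406 and 503 at 6 h and reaches 1001 and 1028 at 12 h, while FZD4, LEF1 and TCF7 are highest at 6 h and lowest at 12 h.

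The Frizzled receptors divided in direction. FZD7, FZD2 and FZD6 made up 33.3%, 29.3% and 25.6% of the family's level per kilobase in DMSO, at 1579 and 1808, 1565 and 1417, and 1233 and 1372 per kb in the 2 libraries. The order of the 3 was the same in both libraries. The closest libraries of FZD7 and FZD2, and of FZD2 and FZD6, differed by less than the spread within each gene, so that order is not firm. FZD7 was at 6095 and 6977 normalized counts in DMSO, 4911 and 4746 at 6 h, 4909 and 5029.9 at 9 h, and 5047 and 5066 at 12 h. It was below DMSO in all 6 treated libraries by a similar amount, with log2 changes of -0.43 ± 0.05, -0.39 and -0.37 (limma adjusted p = 2.61e-06, 8.5e-06 and 1.62e-05). FZD2 was at 3305 and 2992 in DMSO, 2156 and 2322 at 6 h, 2725 and 2713 at 9 h, and 2802 and 2811 at 12 h. Its fall was largest at 6 h (log2 -0.49 ± 0.06, limma adjusted p = 6.69e-07) and smaller at 9 h and 12 h (-0.21 and -0.16, limma adjusted p = 0.00581 and 0.0236), and it rose again from 6 h to 12 h by 0.33 (limma adjusted p = 0.000123). FZD1 followed the same course at a lower level, at 1579.5 and 1679 in DMSO, 1292 and 1291 at 6 h, 1338 and 1375 at 9 h, and 1408 and 1483 at 12 h. Its log2 changes were -0.33 ± 0.06, -0.26 and -0.17 (limma adjusted p = 0.00011, 0.00118 and 0.0215), with 0.16 between 12 h and 6 h (limma adjusted p = 0.0372).

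FZD6, a receptor of the planar polarity branch, went the other way. It was at 5013 and 5579 normalized counts in DMSO, 6972 and 6429 at 6 h, 6512 and 6580.1 at 9 h, and 6178 and 6094 at 12 h. Every treated library lay above DMSO, and the log2 changes were 0.34 ± 0.05, 0.31 and 0.21 (limma adjusted p = 3.81e-05, 0.000114 and 0.00295). FZD4, which also serves as the receptor of the non-Wnt ligand norrin, was at 309 and 285 in DMSO, 433 and 411 at 6 h, 339.6 and 319.7 at 9 h, and 258 and 266 at 12 h. It rose at 6 h (log2 0.51 ± 0.09, limma adjusted p = 0.00014), was not called at 9 h (0.15) or 12 h (-0.18), and fell by 0.68 on the log2 scale from 6 h to 12 h (limma adjusted p = 5.38e-06). In GENCODE v29, 18.9% of the exonic bases of FZD4 overlap PRSS23 on the opposite strand, which stood at 6841 to 7481 normalized counts. The strand setting of the counting is not stated in the sources used here, so reads of the 2 genes may not be told apart. PRSS23 had means of 7146 in DMSO, 6963 at 6 h, 7372 at 9 h and 7413 at 12 h. Its part in the FZD4 values was not tested.

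FZD5 was at 37.1 and 46.2 normalized counts in DMSO, 66.3 and 42.3 at 6 h, 42.8 and 26.5 at 9 h, and 37.6 and 21.9 at 12 h. It was called only between 12 h and 6 h (log2 -0.86, limma adjusted p = 0.029), and not without 6 h replicate 1 (-0.54) or 12 h replicate 2 (-0.48). FZD8, at 1159 to 1277 in the 8 libraries, and FZD9, at 44.8 to 66.7, passed the test nowhere, and the FZD8 changes were 0.01, 0.05 and 0.07 ± 0.06. For the other Frizzled genes, the calls of FZD7 at all 3 times, FZD2 at 6 h and between 12 h and 6 h, FZD1 and FZD6 at 6 and 9 h, and FZD4 at 6 h and between 12 h and 6 h held in every alternative. FZD1 at 12 h was not called without replicate 2 of DMSO (-0.13) or 12 h replicate 1 (-0.14), and its 12 h to 6 h difference without any 6, 9 or 12 h library (0.12 to 0.20). In the authors' deposited table FZD1 at 12 h (-0.17) does not pass an adjusted p of 0.05 either. FZD2 at 9 h was not called without 9 h replicate 2 (-0.21) and was -0.14 without DMSO replicate 1. FZD2 at 12 h was not called without DMSO replicate 1 (-0.09) or either 12 h library (-0.16 and -0.17). FZD6 at 12 h was 0.14 without DMSO replicate 1, and its difference of -0.13 between 12 h and 6 h was called without either DMSO library.

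Both LRP co-receptors of the canonical branch were lower at 6 h. LRP6, which made up 62.5% of the pair's level per kilobase in DMSO, was at 1991 and 2153 normalized counts in DMSO, 1877 and 1771 at 6 h, 2027 and 1845 at 9 h, and 1994 and 2028 at 12 h. Its log2 change was -0.18 ± 0.06 at 6 h (limma adjusted p = 0.0206), and the later libraries overlapped DMSO. LRP5 was at 797 and 684 in DMSO, 572 and 599 at 6 h, 578 and 573 at 9 h, and 593 and 634 at 12 h. All its treated libraries lay below DMSO, with log2 changes of -0.34 ± 0.08, -0.36 and -0.27 (limma adjusted p = 0.00209, 0.00117 and 0.01). LRP5 at 12 h was not called without replicate 1 of DMSO (-0.16) or 12 h replicate 1 (-0.22). LRP6 at 6 h was not called without replicate 2 of DMSO (-0.13) or 6 h replicate 2 (-0.14), was called at 9 h without DMSO replicate 1 (-0.15), and was called higher at 12 h than at 6 h without either DMSO library (0.14).

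The ROR receptors, tyrosine kinase-like receptors of WNT5A, fell at 6 h while their ligand rose. ROR1 was at 281 and 286 normalized counts in DMSO, 201 and 194 at 6 h, 293 and 252 at 9 h, and 232 and 221 at 12 h. Its libraries at 6 h and at 12 h lay below DMSO and those at 9 h overlapped it, with log2 changes of -0.52 ± 0.10, -0.06 and -0.32 (limma adjusted p = 0.000458 at 6 h and 0.0163 at 12 h). ROR2 was at 128 and 107 in DMSO, 68.8 and 97.1 at 6 h, 118 and 84 at 9 h, and 83.5 and 114 at 12 h. Its 6 h change of -0.52 ± 0.19 passed narrowly (limma adjusted p = 0.0439), and the libraries of each treated group spread widely. The ROR1 call at 6 h held in every alternative. The ROR1 call at 12 h was lost without 12 h replicate 2 (-0.28) and in the authors' deposited table. The ROR2 call was lost without replicate 1 of DMSO (-0.39) or 6 h replicate 1 (-0.27), with TMM scaling (-0.50), and in the authors' deposited table.

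ZNRF3, the ligase that removes Frizzled and LRP6 from the surface and is itself known as a β-catenin target, was below DMSO at every time. It was at 279.5 and 269 normalized counts in DMSO, 225 and 215 at 6 h, 184 and 169 at 9 h, and 181 and 136 at 12 h. Every treated library was below DMSO, and the 12 h libraries were below both 6 h libraries. The log2 change was -0.31 ± 0.12 at 6 h (limma adjusted p = 0.052, not called), -0.63 at 9 h and -0.80 at 12 h (limma adjusted p = 0.000397 and 2.47e-05). The difference between 12 h and 6 h was -0.48 (limma adjusted p = 0.00465) and was not called without 12 h replicate 2 (-0.28). The 6 h change was called without DMSO replicate 2 (-0.34) and without either 12 h library (-0.31). Its relative RNF43 was among the genes too low to test.

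Of the 3 secreted antagonists that were present, DKK3 and SFRP1 stood far above the receptors per kilobase in DMSO. DKK1, at 1771 and 2022 per kb, was close to FZD7 at 1579 and 1808. Per kilobase in DMSO, DKK3 made up 53.2% of the summed level of the DKK and SFRP genes, SFRP1 32.3% and DKK1 14.5%. DKK1, the classical LRP5 and LRP6 blocker, was at 3908 and 4462 normalized counts in DMSO, 6070.2 and 6063 at 6 h, 5498 and 5329 at 9 h, and 5691 and 6019.8 at 12 h. All 6 treated libraries lay well above DMSO, with log2 changes of 0.54 ± 0.06, 0.37 and 0.49 (limma adjusted p = 1.67e-07, 1.8e-05 and 4.54e-07), and these 3 calls held in every alternative. In GENCODE v29, 9.61% of its exonic bases overlap the antisense gene PRKG1-AS1, which stood at only 3.65 to 13.5 normalized counts. DKK3 is a divergent member of the DKK family and was placed among the antagonists by its symbol. It was at 36096 and 34567 in DMSO and at 39275 and 39328 at 6 h. Later it was at 39811 and 40541 at 9 h, and 38823 and 39208 at 12 h. Its log2 changes were 0.15 ± 0.04, 0.19 and 0.14 (limma adjusted p = 0.00757, 0.00185 and 0.0111). With quantile normalization the DKK3 changes at 9 h and 12 h were 0.06 and 0.02 and not called, and the 12 h call was also lost without either 12 h library (0.15 and 0.14). SFRP1, a soluble Wnt binder, was at 20366 and 20032 in DMSO, 23047 and 23182 at 6 h, 20795 and 20541 at 9 h, and 19071 and 20165 at 12 h. It rose at 6 h (log2 0.19 ± 0.04, limma adjusted p = 0.00134), was 0.03 and -0.04 at 9 h and 12 h, and was lower at 12 h than at 6 h by 0.24 on the log2 scale (limma adjusted p = 0.000245).

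The promoter of DKK1 is shown because this gene had the largest rise among the antagonists, and because it is a known target of the pathway it blocks. It lies at chr10:52314031-52314280 on the plus strand of GRCh38.p14 (RefSeq, 250 bases before the start), and the capitals mark matches to the TCF cores CTTTGA and CTTTGT on either strand.
DKK1: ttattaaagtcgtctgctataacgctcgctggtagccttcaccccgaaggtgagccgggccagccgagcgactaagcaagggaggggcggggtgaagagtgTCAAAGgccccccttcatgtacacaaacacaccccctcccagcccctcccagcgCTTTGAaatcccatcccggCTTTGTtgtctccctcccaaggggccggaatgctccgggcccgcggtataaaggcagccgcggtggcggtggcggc
The 3 matches lie at positions -149 to -144 (minus strand), -95 to -90 and -76 to -71 (plus strand) from the start. RefSeq promoters were found for 29 of the 43 genes. Either core occurs in 22.9% of the 27305 RefSeq promoters of this length and in 4 of the 29 (13.8%), namely DKK1, FZD1, RNF43 and ROR2. A p53 half-site occurs in 5.53% of all the promoters and in 0 of the 29. A match describes letters, not binding.

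Both AXIN scaffolds of the β-catenin destruction complex were lower. AXIN1, the constitutive scaffold, made up 92.8% of the pair's level per kilobase in DMSO and was at 766 and 747 normalized counts in DMSO, 658 and 646 at 6 h, 615 and 626 at 9 h, and 609.7 and 587 at 12 h. Its groups did not overlap DMSO at any time, with log2 changes of -0.21 ± 0.07, -0.29 and -0.34 (limma adjusted p = 0.0176, 0.00247 and 0.000456). AXIN2, the scaffold that is widely read as a target gene of β-catenin, was low, at 45.9 and 36.5 in DMSO, 21.3 and 26.9 at 6 h, 27.9 and 21.9 at 9 h, and 33.6 and 33.3 at 12 h. It was below DMSO in all treated libraries, with log2 changes of -0.75 ± 0.26 at 6 h, -0.71 at 9 h and -0.29 at 12 h (limma adjusted p = 0.0267, 0.0383 and 0.405). The AXIN2 calls are the less certain ones. At 6 h AXIN2 was not called without replicate 1 of DMSO (-0.59) or 6 h replicate 1 (-0.59). At 9 h it was not called without DMSO replicate 1 (-0.54), 9 h replicate 1 (-0.87) or replicate 2 (-0.54), or either 12 h library (-0.71), and in the authors' deposited table it passes at neither time. In GENCODE v29 a read-through transcript on the same strand covers 25.2% of the exonic bases of AXIN2. AXIN1 at 6 h was not called without DMSO replicate 1 (-0.20), or 6 h replicate 1 (-0.23) or replicate 2 (-0.20), nor in the authors' deposited table, while its calls at 9 h and 12 h held in every alternative.

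β-catenin itself changed little. CTNNB1 was at 9463 and 10802 normalized counts in DMSO, 11624 and 11247 at 6 h, 10818 and 10844 at 9 h, and 10679 and 10352 at 12 h. The 6 h and 9 h libraries lay above both DMSO libraries and those at 12 h between them. At 6 h the log2 change was 0.18 ± 0.05 (limma adjusted p = 0.0118), against 0.10 at 9 h and 0.06 at 12 h. The 2 DMSO libraries set this value: without DMSO replicate 1 the 6 h change was 0.08 and not called, and without DMSO replicate 2 it was 0.27. The 6 h call was also lost without 6 h replicate 1 (0.15), and the changes at 9 h and 12 h were called without DMSO replicate 2 (0.19 and 0.15). At 12 h the change turned to -0.039 without DMSO replicate 1, and the difference of -0.12 between 12 h and 6 h was called without either DMSO library. RNA level says nothing of the β-catenin protein, which the pathway controls by degradation.

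Of the TCF/LEF factors, TCF7L1 led at 52.1% of the family's level per kilobase in DMSO, followed by TCF7L2 at 26.8%, TCF7 at 12.2% and LEF1 at 8.90%, an order found in both DMSO libraries. The 2 less abundant factors moved and the 2 more abundant ones were not called. LEF1, a factor that is itself a known β-catenin target, was at 106 and 109 normalized counts in DMSO, 144 and 146 at 6 h, 91.6 and 79.5 at 9 h, and 65.5 and 56.2 at 12 h. The 6 h libraries lay above DMSO and those at 9 h and 12 h below it. The log2 change was 0.43 ± 0.15 at 6 h, -0.32 at 9 h and -0.81 at 12 h (limma adjusted p = 0.027, 0.1 and 0.000183), and the 12 h level was 0.42-fold that at 6 h (log2 -1.24, limma adjusted p = 1.72e-06). TCF7 was at 311 and 238 in DMSO, 319 and 365 at 6 h, 247 and 216 at 9 h, and 199 and 171 at 12 h. It took the same course: 0.32 ± 0.13 at 6 h, -0.24 at 9 h and -0.56 at 12 h (limma adjusted p = 0.048 at 6 h and 0.00118 at 12 h), and -0.89 between 12 h and 6 h (limma adjusted p = 1.45e-05). TCF7L1 was at 577 and 456 in DMSO, 488 and 558 at 6 h, 495 and 504 at 9 h, and 462 and 438 at 12 h. TCF7L2 was at 427 and 385 in DMSO, 383 and 357 at 6 h, 374 and 356 at 9 h, and 396 and 409 at 12 h. Neither was called in any comparison. Against DMSO the log2 changes ran from -0.19 to 0.03 for TCF7L1 (SE 0.10) and from -0.15 to -0.01 for TCF7L2 (SE 0.09), and between 12 h and 6 h they were -0.21 and 0.12.

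The falls of LEF1 and TCF7 at 12 h and from 6 h to 12 h held in every alternative, but their rise at 6 h did not. LEF1 at 6 h was not called without DMSO replicate 1 (0.41), or 6 h replicate 1 (0.45) or replicate 2 (0.42). TCF7 at 6 h was not called without DMSO replicate 2 (0.13), 6 h replicate 1 (0.42) or replicate 2 (0.23), or any 9 h or 12 h library (0.32). Without DMSO replicate 1, TCF7 was 0.52 at 6 h and -0.37 at 12 h, and without DMSO replicate 2 it was called at 9 h (-0.43). In the authors' deposited table neither 6 h rise passes. TCF7L1 was called lower at 12 h without DMSO replicate 2 (-0.36), and lower at 12 h than at 6 h without either DMSO library (-0.21). In GENCODE v29, 2.09% of the exonic bases of TCF7 overlap SKP1 on the opposite strand (6174 to 7066 normalized counts) and 5.20% of those of LEF1 overlap LEF1-AS1, which stood at 0.82 to 5.97. The promoters of LEF1 (chr4:108166302-108166551, minus strand) and TCF7 (chr5:134115363-134115612, plus strand), again 250 bases on GRCh38.p14, are given for the 2 factors that moved together.
LEF1: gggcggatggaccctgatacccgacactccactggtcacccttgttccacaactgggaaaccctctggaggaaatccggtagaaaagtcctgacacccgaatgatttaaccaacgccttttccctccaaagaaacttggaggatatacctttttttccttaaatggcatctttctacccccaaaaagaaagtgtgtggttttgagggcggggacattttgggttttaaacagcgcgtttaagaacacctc
TCF7: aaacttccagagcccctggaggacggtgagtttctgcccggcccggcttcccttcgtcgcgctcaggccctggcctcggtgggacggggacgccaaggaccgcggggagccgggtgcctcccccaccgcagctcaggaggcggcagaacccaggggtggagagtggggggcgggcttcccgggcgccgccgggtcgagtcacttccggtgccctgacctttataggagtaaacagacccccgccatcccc
Neither holds a TCF core or a p53 half-site, and their GC content was 47.6% for LEF1 and 70.8% for TCF7, so these stretches have little base composition in common.

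The rest of the pathway was read from 6 lists of genes, none of them among the 43, and the medians below are of their log2 changes at 6, 9 and 12 h, for which all genes gave -0.01, 0.01 and 0.01. Each list's share called in either direction at the 3 times is to be read against 36.7%, 35.3% and 39.9% of all genes. By direction, 16.1%, 16.2% and 18.5% of all genes were higher, and 20.6%, 19.1% and 21.4% lower. The recounts of the lists under other settings carry no such share, so they show only how far a count moved. Of 15 tested genes for Wnt secretion and extracellular modulation, 2 rose and 4 fell at 6 h, 2 rose and 3 fell at 9 h, and 4 rose and 4 fell at 12 h (40%, 33.3% and 53.3% called), with medians of -0.06, 0.05 and 0.17. SULF2, a sulfatase that edits heparan sulfate, rose most, from 18.6 and 14.0 normalized counts in DMSO to 386 and 377 at 12 h (log2 4.48 ± 0.14, limma adjusted p = 7.01e-16). Its relative SULF1 rose by 0.27 at 12 h after a fall at 6 h (-0.25), and CTHRC1, a secreted partner of WNT5A and ROR2, rose by 0.32 (0.21 without DMSO replicate 1). KREMEN2, a DKK1 receptor, fell from 23.5 and 12.9 in DMSO to 1.64 and 4.16 at 12 h, near the detection limit (log2 -2.32, limma adjusted p = 0.0013). The number lower at 12 h was 2 without replicate 1 of DMSO or 12 h replicate 2 and 1 without 12 h replicate 1, and at 9 h it was 1 without replicate 1 of DMSO or 9 h replicate 2. At 12 h it was also 2 with quantile normalization or a mean of at least 50, and 1 with DESeq2 on recovered reads, in the deposited tests and without the intensity trend. Without the trend 1 was higher at 6 h and 1 at 9 h. SULF1 at 6 h was not called without 6 h replicate 2 (-0.21).

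Of 21 tested genes for other Wnt receptors and planar polarity, 4 rose and 4 fell at 6 h, 5 rose and 1 fell at 9 h, and 4 rose and 3 fell at 12 h (38.1%, 28.6% and 33.3% called), with medians of -0.04, 0.06 and 0.01. The polarity scaffold SCRIB rose at all times, from 2666 and 2770 normalized counts in DMSO to 4057 and 4201 at 12 h (log2 0.60 ± 0.05), and the polarity cadherin CELSR1 rose by 0.93, 0.84 and 0.69. VANGL1, a core polarity protein, fell by 0.16, 0.26 and 0.49 on the log2 scale at the 3 times, and DAAM2 fell by 0.37 at 12 h. DAAM2 was not called without replicate 1 of DMSO (-0.24) or 12 h replicate 2 (-0.32), and VANGL1 not at 9 h without 9 h replicate 2 (-0.21). VANGL1 at 6 h held only without DMSO replicate 2 among the left-out libraries. The number higher at 12 h was 2 without either 12 h library and the number lower 1 without 12 h replicate 2. The number lower at 6 h was 2 without 6 h replicate 1, and at 9 h it was 0 without 9 h replicate 2 and 2 without either DMSO library. It was 2 at 6 h with DESeq2 on recovered reads and in the deposited tests, where DAAM2 at 12 h was not called either, and 2 at 9 h without the trend or with a mean of at least 50.

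Of 29 tested genes of the destruction complex and cytoplasmic relay, 6 rose and 4 fell at 6 h, 6 rose and 4 fell at 9 h, and 6 rose and 5 fell at 12 h, with medians of -0.05, 0.01 and 0.00. The shares called, 34.5%, 34.5% and 37.9%, were near those of all genes. DVL2, a dishevelled protein that relays the Frizzled signal, fell by 0.47 at 12 h, from 1566 and 1229 normalized counts in DMSO to 995 and 1014 (0.29 lower without DMSO replicate 1). The casein kinase gene CSNK1G1 rose by 0.31 at 12 h, and PPP2CA, a phosphatase subunit, and USP7, a deubiquitinase that acts on MDM2, fell by 0.24 and 0.23. These 4 were called at 12 h in every fit that left out a library. The number higher at 12 h was 2 without 12 h replicate 1, and at 9 h it was 1 and 2 without 9 h replicates 1 and 2. The number lower was 9 at 6 h without DMSO replicate 2 and 1 at 9 h without 9 h replicate 2. Without the trend, 2 were higher and 2 lower at 9 h and 1 was higher at 12 h, and in fits of only the 2 groups 2 were higher at 9 h.

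Of 26 tested nuclear co-factors of β-catenin, 3 rose and 8 fell at 6 h, 2 rose and 6 fell at 9 h, and 3 rose and 7 fell at 12 h (42.3%, 30.8% and 38.5% called), with medians of -0.08, -0.07 and -0.02. TLE3, a co-repressor of the TCF factors, fell from 891 and 737 normalized counts in DMSO to 566 and 543 at 12 h (log2 -0.55 ± 0.08), SMARCA4, a chromatin remodeller, by 0.30 and TBL1X by 0.23. BCL9L, which links β-catenin to its co-activators, rose by 0.29, and the repressor HBP1 by 0.22. At 12 h 5 were higher with TMM scaling, quantile normalization and edgeR, and 1 with DESeq2 on recovered reads, in the deposited tests and without the trend. Without the trend 4 were lower at 12 h. HBP1 was not called with DESeq2, in the deposited tests or without the trend, nor without replicate 1 of DMSO (0.14) or 12 h replicate 1 (0.17). SMARCA4 was -0.20 without DMSO replicate 1 and BCL9L 0.19 without DMSO replicate 2, both still called.

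Of 26 tested genes often listed as β-catenin targets, 10 rose and 9 fell at 6 h, 8 rose and 8 fell at 9 h, and 6 rose and 7 fell at 12 h (73.1%, 61.5% and 50% called), with medians of 0.07, 0.00 and 0.02. BIRC5, the apoptosis inhibitor survivin and a marker of dividing cells, fell from 3404 and 3637 normalized counts in DMSO to 1128 and 1170 at 12 h (log2 -1.61 ± 0.06). MYC, a growth regulator, fell by 0.84, and FOSL1, a component of AP-1, by 0.63. CLDN1, a tight junction protein, rose from 774 and 704 to 1443 and 1491 (log2 0.99 ± 0.07), and VEGFA, an angiogenic factor, by 0.46. The list did not move in 1 direction at any time. The number higher at 6 h was 6 without 6 h replicate 1, and at 9 h it was 5 without the trend.

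Of 17 tested genes of the calcium branch, 1 rose and 7 fell at 6 h, 3 rose and 2 fell at 9 h, and 5 rose and 1 fell at 12 h (47.1%, 29.4% and 35.3% called), with medians of -0.07, -0.06 and -0.01. CAMK2A, a calcium-dependent kinase, rose from 17.6 and 24.7 normalized counts in DMSO to 54.8 and 55.2 at 12 h (log2 1.36 ± 0.25). The transcription factor genes NFAT5 and NFATC4 both rose by 0.29 at 12 h and the phospholipase gene PLCB4 by 0.18, while PLCB3 fell by 0.16. At 6 h NFATC4 and PLCB4 were called lower (-0.25 and -0.28). Their differences between 12 h and 6 h were 0.54 and 0.46. The 6 h fall of PLCB4 held in every alternative run and that of NFATC4 did not. NFAT5 was 0.19 without DMSO replicate 1, PLCB4 was not called without replicate 1 of DMSO (0.12) or 12 h replicate 2 (0.15), and PLCB3 not without 12 h replicate 2 (-0.11). The number higher at 12 h was 3 without replicate 1 of DMSO or 12 h replicate 2, the number lower 0 without 12 h replicate 2 and 2 without either DMSO library. The number higher at 6 h was 3 without DMSO replicate 2, and the number lower at 9 h was 5 without DMSO replicate 1 and 1 without 9 h replicate 1 or either 12 h library. PLCB3, the 1 gene lower at 12 h, was not called (log2 -0.11 to -0.16) with TMM scaling, quantile normalization, edgeR, DESeq2 on recovered reads, the deposited tests, no trend or only the 2 groups, while 2 genes were lower with a pseudocount of 5 or the replicate block. At 9 h the number lower was 1 with TMM scaling, edgeR, DESeq2, the deposited tests or only the 2 groups. The number higher was 2 at 6 h with quantile normalization and 2 at 12 h without the trend.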

How the data were processed

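RNA was sequenced from 8 IMR90 libraries in 4 groups. Per the submitters' processing notes, STAR, DESeq2 and build hg19 were used; for versions, annotation, counting tool and strand setting, nothing is stated. The kit marks strand and selects polyadenylated RNA, per the labels' protocols. The deposited normalized counts are a signal per gene: gene read counts divided by a factor per library. Dividing by the smallest step of a library gave whole reads for 100% of values (tolerance 1e-06). Entries that name no gene held 28.2 to 29.1% of each total and were left out. The authors also deposited DESeq2 tables with a mean signal (normalized count), a log2 fold change, a Wald score and p-values for DMSO over Nutlin-3a, with the sign turned here.

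Changes were tested with limma 3.58.1 (intensity trend, R 4.3.3) on log2(normalized count + 1), all 8 libraries in 1 fit (4 residual and 15.5 prior degrees of freedom), for 14074 genes with at least 10 in at least 2 libraries, Benjamini-Hochberg threshold 0.05. Fold changes are on that scale, which understates low genes. With 2 against 2 libraries an exact permutation test cannot go below 0.333, so none is given. Comparisons were 6, 9 and 12 h with DMSO and 12 h with 6 h; the first 3 share the DMSO libraries. edgeR 4.0.16 and DESeq2 1.42.0 on the recovered reads were among 20 alternatives. limma was tested on simulated data. The labels do not say that equal replicate numbers mark a shared culture or day, so the main fit used no pairing. Genes described are those called in at least 1 comparison or with a mean of at least 50; from each list, the 4 called genes of lowest p at 12 h, plus up to 2 against the majority. The genes and lists were chosen with earlier results of these data known. Exon lengths and overlaps came from GENCODE v29 (GRCh38), promoters from RefSeq (GRCh38.p14), searched on both strands. Figures were drawn with matplotlib.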

Additional observations from a re-analysis of the deposited data

Results flagged for a closer look

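For 11 of the 31 tested Wnt genes (35.5%, against 31.5% of all tested genes, a share near that background) the change from DMSO at 12 h differed from that at 6 h, by the test of 12 h against 6 h itself (limma adjusted p under 0.05 over all genes). LEF1 and TCF7, the less abundant TCF/LEF factors, differed by -1.24 and -0.89 on the log2 scale. The receptors FZD4 and FZD5 differed by -0.68 and -0.86, and FZD2 and FZD1 by 0.33 and 0.16. The ligand WNT16 differed by 1.16, WNT9A by -1.02 and WNT5B by -0.14. The ligase ZNRF3 differed by -0.48 and the antagonist SFRP1 by -0.24. All 11 genes are described with their libraries in the results above, and no cause was tested.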

How the results depend on the processing

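Of 62 calls of the described Wnt genes, 34 held in every alternative run that tested them. The authors' deposited tests hold no comparison of 12 h with 6 h, so the 11 calls between those times were not put to them. The numbers that ended were 19 without the intensity trend, 15 with DESeq2 and 2 with edgeR on the recovered reads, 12 in the authors' deposited tests, 12 with quantile normalization, 10 in fits of only the 2 groups compared, 4 without the filter, 1 with TMM, and 4 to 14 without single libraries. With quantile normalization ROR1 at 12 h (-0.25), LRP6 and ROR2 at 6 h (-0.15 and -0.51), WNT9A at 6 h (0.84) and WNT5B between 12 h and 6 h (-0.10) were also not called. Quantile normalization moved the share of higher among all calls at 12 h from 46.4% to 57.6%, with 5 Wnt genes higher and 6 lower. The 1 change of direction was CTNNB1 at 12 h without DMSO replicate 1 (-0.039, and 0.15 without DMSO replicate 2). The causes were not tested.

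The number of Wnt genes higher at 6 h was 6 without the trend and 7 in fits of only the 2 groups. The number lower at 6 h was 7 with DESeq2 on recovered reads and 7 in the deposited tests. Between 12 h and 6 h, 5 were higher in fits of only the 2 groups, and 4 were lower without the trend. Over the fits without single libraries, 6 to 10 Wnt genes were higher and 8 to 13 lower at 6 h, 5 to 6 and 5 to 9 at 9 h, 4 to 7 and 6 to 10 at 12 h, and 2 to 6 and 4 to 11 between 12 h and 6 h. All genes called between 12 h and 6 h were 2930 (without 12 h replicate 2) to 5668. Of 101 calls of the named genes of the pathway lists, 74 held in every alternative; these were added after seeing the data.

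The replicate number as a block gave 10 higher and 13 lower at 6 h, 5 and 8 at 9 h, 6 and 10 at 12 h, and 4 and 8 between 12 h and 6 h. Deviations of equal-numbered libraries correlated by -0.152 to 0.0914 between groups, so they showed no strong shared shift. Whether equal numbers mark a shared culture or day is not stated, and these correlations cannot tell. Depth limits the low genes: the SE at 6 h was 0.26 for AXIN2, 0.29 for FZD5 and 0.36 for WNT9A, against 0.05 for WNT5A.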

Other observations

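Several genes of the pathway lists were called against DMSO at 6 h and not at 12 h (limma), and 6 of them are given here, chosen after their values were seen. That choice largely fixes a difference between 6 h and 12 h. The tests of 12 h against 6 h below, and their stability, are therefore no separate evidence. The share of all genes with such a course is not given here. NFATC2, a calcium-regulated transcription factor, was at 116 and 94.5 normalized counts in DMSO, 276 and 246 at 6 h, 128 and 121 at 9 h, and 115 and 97.8 at 12 h, a log2 change of 1.31 ± 0.14 at 6 h and 0.02 at 12 h. DACT1, a dishevelled antagonist, was at 415 and 359 in DMSO, 592 and 676 at 6 h, and 382 and 383 at 12 h, with 0.71 at 6 h and -0.01 at 12 h. MAPK8, the JNK1 kinase of the polarity branch, was 0.38 at 6 h and -0.12 at 12 h. Each of these 3 was higher at 6 h than at 12 h, by the test of 12 h against 6 h (-1.29, -0.72 and -0.50).

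The opposite course was seen in 3 genes. CAMK2G, a calcium-dependent kinase, was at 1149 and 1148 normalized counts in DMSO, 754 and 728 at 6 h, 1030 and 1020 at 9 h, and 1130 and 1146 at 12 h, with log2 changes of -0.63 ± 0.06, -0.16 and -0.01. LGR4, an R-spondin receptor that holds ZNRF3 in check, was -0.35 at 6 h and 0.17 at 12 h. APCDD1, an inhibitor at the Wnt receptor, was at 245 and 221 in DMSO, 128 and 109 at 6 h, and 187 and 200 at 12 h, with -0.98 ± 0.12 at 6 h, -0.51 at 9 h and -0.27 at 12 h. From 6 h to 12 h these 3 rose by 0.62, 0.52 and 0.71 on the log2 scale. CAMK2G at 9 h was not called when any library but those at 6 h was left out (-0.16 to -0.17), and the other 6 h and 12 h to 6 h calls of the 6 genes held in every alternative run.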
